A study of Mus musculus with 48 samples.

Results

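The comparison described here set the transcript response of cells that received conditioned medium against the response of cells given the inhibitor itself. It was computed per gene as the change between recipients of supernatant from oligomycin A-treated and from vehicle-treated cultures, minus the change between oligomycin A-treated and vehicle-treated cells. All cells were MLO-Y4, a mouse osteocyte-like line labelled C57BL/6J, so the comparison rests on a single line. The comparison used 12 of the 48 samples of the series, 3 libraries in each of 4 groups, and 11902 of 55335 gene rows, those with a mean of at least 1 FPKM (a fragment count divided by transcript length and library size) over the 12 libraries. Treated cells had oligomycin A in fresh medium for 1 h, and their controls had the same volume of DMSO for the same time. Recipients were normally cultured cells that had supernatant from either culture for 2 h. The protocol gives a stock of 50 mM and a working concentration of 50 µM, whereas the treatment label of the samples gives the stock figure and names oligomycin A for vehicle samples too; groups were taken from titles. The sources do not say that the inhibitor was removed from the supernatant, so carried-over inhibitor and released factors cannot be told apart. Exposure time and medium differ between the responses together with the route of exposure, and these cannot be told apart either. Nothing in the sources states that the 3 libraries of a group came from separate cultures, and the p-values therefore cover the spread among libraries alone, which may be technical.

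Oligomycin A blocks the proton channel of mitochondrial ATP synthase. Loss of mitochondrial ATP production raises AMP and activates stress kinases, and mitochondrial dysfunction is also known to feed the integrated stress response, in which the transcription factor ATF4 and its partner CHOP act on amino acid and redox genes. Immediate early genes such as Fos and Egr1 are transcribed within minutes of a stimulus without new protein synthesis, and many of their mRNAs are short-lived. Osteocytes signal to neighbours through released nucleotides, prostaglandins and connexin channels, among other routes.

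Depth, inferred from the steps between low FPKM values, was put at 15.2 to 20.6 M fragments per library. At that depth 40.7% to 43.4% of low values lay within 0.1 of a whole fragment, so the estimate is rough. Genes resembling rRNA, with 7S RNA, took 28.56% of the summed FPKM of vehicle replicate 2; the remaining 11 libraries had 0.3517% to 0.5504%, and the counts of calls are given below with and without it. Of 13 osteocyte markers 9 were measured in the fit, among them Pdpn at a median of 240 FPKM, Gja1 at 33.1 and Phex at 10.0 over the 12 libraries. The markers of mature osteocytes were absent or nearly so: Sost was listed at 0 in all libraries, and Dmp1 and Mepe did not exceed 0.0439 and 0.134 FPKM. The 6 endothelial markers summed to at most 0.1 FPKM and the 6 epithelial ones to at most 0.0848 FPKM in any library, with Kdr, Tie1, Cdh1, Epcam, Krt14 and Krt5 at 0 throughout. Markers of macrophages and osteoclasts summed to 15.0 to 16.4 FPKM in the directly exposed groups and 17.6 to 21 in the recipient groups, largely Mmp9 and Ctsk, with Adgre1, Tyrobp and Calcr at 0 and Itgam at no more than 0.013 FPKM; the part of this in any result was not tested.

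Recipients responded less than treated cells for most of the genes whose responses differed. By limma at a Benjamini-Hochberg adjusted p below 0.05, 53 of 11902 genes differed, which is 0.445% of the genes tested. Of these, 43 had a lower response in recipients (0.361% of genes tested) and 10 a higher one (0.084%). Early genes such as Fos, Jun and Egr1 and the stress regulator Ddit3 were among the 43, beside genes that stand in none of the lists used, and 3 of the 10 were protein-coding. In such bulk libraries fewer responding cells and less RNA per cell cannot be told apart. In treated cells 442 genes were higher (3.71%) and 194 lower (1.63%). In recipients 33 genes were higher (0.277%) and 13 lower (0.109%). These recipient calls lean on the spread shared over all 4 groups. With only the 6 recipient libraries fitted, 7 genes were called, 2 higher and 5 lower, and 4 of them were shared with the main fit. With vehicle replicate 2 left out, the balance in treated cells turned over to 286 higher and 366 lower, while recipients had 39 higher and 17 lower.

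The 53 genes fell into few patterns. Of the 43 with a lower response in recipients, 30 were called higher in treated cells and not called in recipients, and 8 were called higher in both with the smaller rise in recipients (Arc, Btg2, Ddit3, Ddit4, Egr1, Fos, Ptgs2 and Sat1). Txnip alone was called in opposite directions, higher in treated cells and lower in recipients. The remaining 4 (Amotl2, Arrdc4, Midn and Rps23-ps2) were called lower in recipients and not called in treated cells. Of the 10 with a higher response in recipients, 8 were called lower in treated cells only, mt-Tl1 was called lower in both, and Zfc3h1 was called lower in treated cells and higher in recipients.

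**Figure D1:**
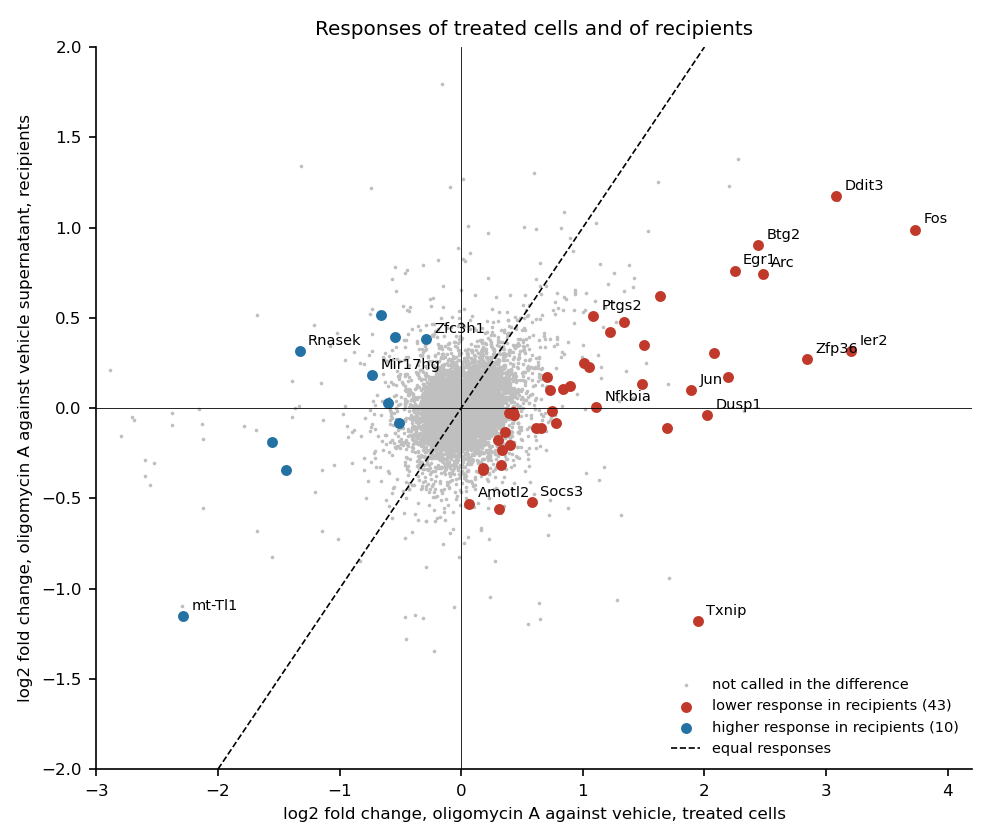
Each point is 1 gene, with its log2 fold change in treated cells on the horizontal axis and in recipients on the vertical axis; 1 gene that was not called lies outside the axes. Red points are the 43 genes with a lower response in recipients, blue points the 10 with a higher one, and the dashed line marks equal responses. Red points spread from 0.07 (Amotl2) to 3.73 (Fos) on the horizontal axis. On the vertical axis they spread from -1.18 (Txnip, in the lower right) to 1.18 (Ddit3).

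With 3 libraries a group, a response can also be bounded without a model, from all pairs of 1 exposed and 1 control library. The range of such single-pair responses in recipients lay wholly below that in treated cells for 431 genes (3.62%) and wholly above it for 254 (2.13%). All 53 called genes were among these 685, but the ranges and the calls rest on the same 12 libraries, so this is no separate support. Without vehicle replicate 2, 59 genes were called, 17 higher and 42 lower, and 49 of the 53 remained; the calls of Dnaja1, Gadd45b, Mnt and Rps23-ps2 ended.

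After Txnip, described further on, the largest called differences were those of the early genes Ier2, Fos and Zfp36. Ier2 (chr8:84661331-84662852, GRCm38, minus strand, 1 exon, protein-coding), a nuclear regulator induced by growth factors, stood at 59.4, 58.8 and 60.1 FPKM in vehicle and 561, 527 and 581 FPKM in treated libraries. With supernatant it stood at 34.5, 27.7 and 28.7 FPKM in vehicle recipients and 33.7, 39.3 and 40.5 FPKM in oligomycin A recipients. The treated libraries were far above all others, while the recipient groups overlapped. The log2 response, on the log2(FPKM + 1) scale used for every fold change here, was 3.20 in treated cells and 0.31 in recipients, a difference of -2.89 ± 0.12 (SE, limma adjusted p = 4.27e-07).

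Fos (chr12:85473890-85477273, plus strand), the AP-1 subunit, stood at 32.1, 29.6 and 33.9 FPKM in vehicle and 441, 413 and 452 FPKM in treated libraries. In recipients it went from 7.01, 4.15 and 6.09 FPKM to 11.8, 12.9 and 11.8 FPKM. Neither pair of groups overlapped, and the highest recipient library was below the lowest vehicle library of the directly exposed cells. The responses were 3.73 and 0.99 and their difference -2.74 ± 0.18 (SE, limma adjusted p = 2.06e-05). Zfp36 (chr7:28376784-28380253, minus strand), which binds AU-rich elements and promotes mRNA decay, stood at 17.2, 16.9 and 17.6 FPKM in vehicle and 134, 126 and 129 FPKM in treated libraries. Its recipient libraries stood at 11.3, 9.49 and 10.4 FPKM with vehicle supernatant and 13, 13.7 and 11.5 FPKM with oligomycin A supernatant, which do not overlap but differ little. The difference of its responses was -2.57 ± 0.10 (SE, limma adjusted p = 3.39e-07).

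Dusp1, a phosphatase that switches off MAP kinases, showed no overlap in treated cells and full overlap in recipients. It stood at 17.1, 15.7 and 18.9 FPKM in vehicle and 74.0, 67.7 and 76.9 FPKM in treated libraries, and at 11.1, 11 and 11 FPKM and 9.52, 12.2 and 10.6 FPKM in the recipient groups. Its responses were 2.02 and -0.04, with a difference of -2.06 ± 0.12 (SE).

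**Figure D2:**
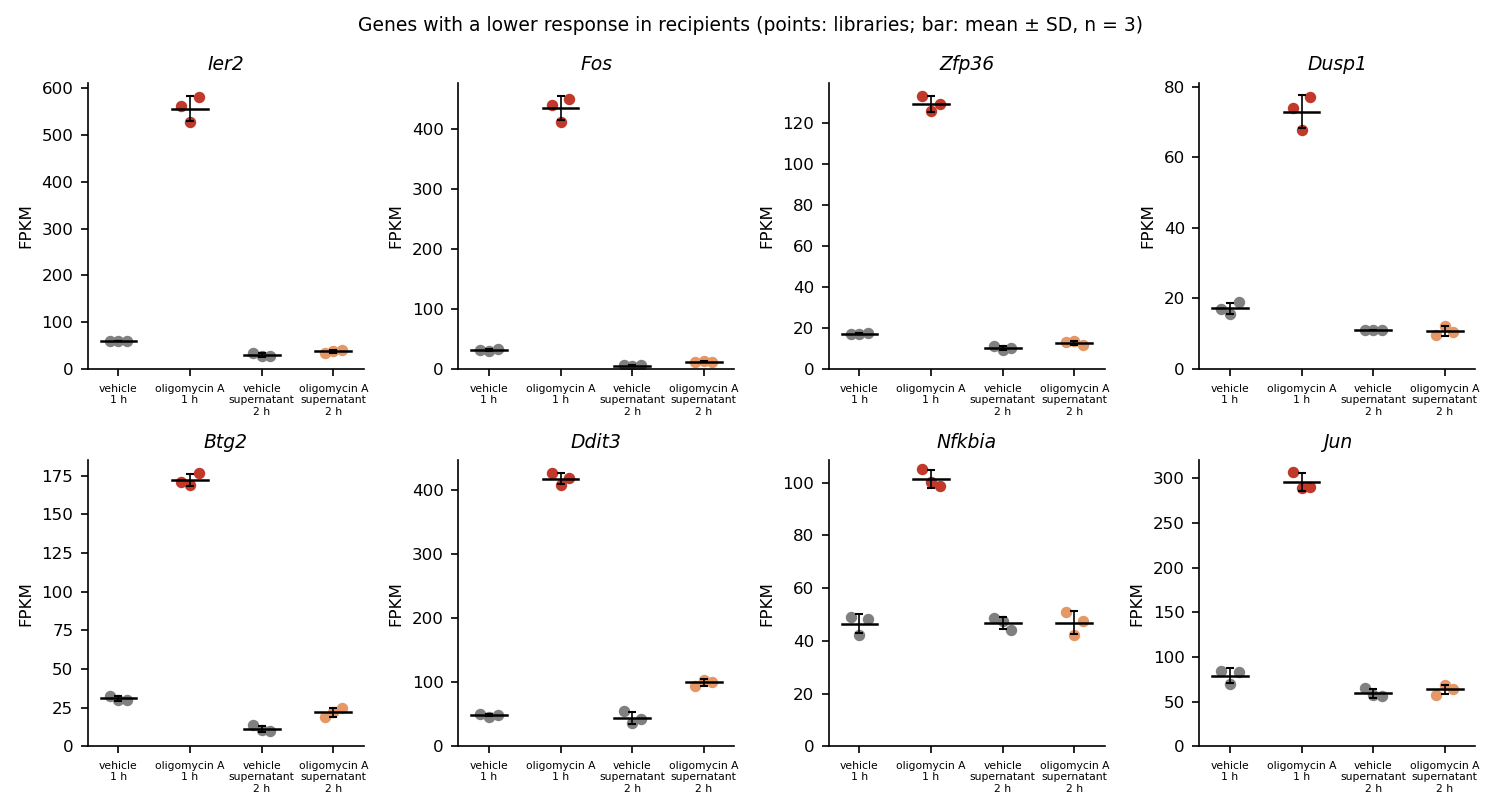
FPKM of 8 genes with a lower response in recipients, by group, with 1 point per library and bars for the mean and SD of 3 libraries. In each panel the treated libraries stand above the other 3 groups; the recipient groups overlap for Ier2, Dusp1, Nfkbia and Jun and are separate for Fos, Zfp36, Btg2 and Ddit3.

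Among the 7 measured AP-1 subunits, 3 had a lower response in recipients (Fos, Jun and Junb) and none a higher one. Their median response was 1.42 in treated cells and 0.28 in recipients, and the median difference was -0.70, against -0.0049 over all genes tested. This list and those below were chosen with earlier results of these data known, so such contrasts with all genes are descriptions only. Jun stood at 84.2, 69.8 and 83.4 FPKM in vehicle and 308, 289 and 291 FPKM in treated libraries, and between 55.9 and 68.4 FPKM in all 6 recipient libraries, for a difference of -1.79 ± 0.12 (SE). Junb differed by -1.36. The members not called ranged from Fosb, called higher in both kinds of cell, to Jund, whose estimated response was slightly larger in recipients.

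Of 11 measured Egr, Nr4a and Arc genes, Egr1 and Arc were called. Egr1, a zinc finger transcription factor, stood at 195, 200 and 183 FPKM in vehicle, 953, 875 and 932 FPKM in treated libraries, 53, 46.4 and 47.2 FPKM in vehicle recipients and 72.1, 83.2 and 96.5 FPKM in oligomycin A recipients. No groups overlapped: Egr1 rose in both kinds of cell, by 2.25 and 0.76, with a difference of -1.49 ± 0.13 (SE). Arc, best known as an activity-regulated gene of neurons, rose by 2.48 and 0.75, with a difference of -1.73 ± 0.18 (SE). Nr4a1, an orphan nuclear receptor, rose by 1.61 in treated cells and 1.25 in recipients, and its difference of -0.36 (95% interval -0.94 to 0.21) was not called. The other members had small or imprecise differences, and the median of the list was -0.15.

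Of 17 measured Ier and Btg early genes, 3 were called lower (Ier2, Btg2 and Ier3), with a list median of -0.20. Btg2, an antiproliferative gene that promotes deadenylation of mRNA, stood at 32.8, 30.0 and 29.9 FPKM in vehicle and 171, 169 and 177 FPKM in treated libraries, and rose from 13.7, 10.5 and 9.84 FPKM to 19.0, 22.4 and 24.7 FPKM in recipients. The groups were separate in both comparisons, and the difference was -1.54 ± 0.16 (SE). Ier3, which modulates cell survival, differed by -1.16. Zfp36 was the 1 called member of 11 in the mRNA decay list and Dusp1 the 1 of 9 dual-specificity phosphatases. All 11 estimates of the first list were negative and 8 of the second, against 6111 of 11902 over all genes, again for lists chosen with earlier results known. Of 10 EGFR ligands and feedback inhibitors none was called by limma, and 1 had an unadjusted p below 0.05.

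Called genes with a lower response were searched for short motifs in the promoter window from 250 bases before to 50 after the RefSeq start (GRCm38.p6), since many early genes are known targets of CREB, SRF and AP-1. A window was found for 32 of the 43. The full cAMP response element, TGACGTCA, a palindrome that reads the same on both strands, occurred in 3 of these genes (9.38%). Among the 8103 tested genes with a window the share was 3.84%. A gene counted if any of its windows held the motif. Counted by single window, an unlike measure, the share was 1.79% of 32851. The stretches with the element in capitals are printed here because they show it in a MAP kinase phosphatase, an mRNA decay factor and a cyclin that act in unlike pathways; each is written 5′ to 3′ on the minus strand, that of the gene, and the element starts at position -166 (Btg2), -143 (Dusp1) or -18 (Ccnl1) relative to the start.
Btg2, chr1:134079289-134079346: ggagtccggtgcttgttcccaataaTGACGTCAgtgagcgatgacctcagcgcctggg
Dusp1, chr17:26508583-26508640: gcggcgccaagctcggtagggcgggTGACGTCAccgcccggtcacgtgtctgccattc
Ccnl1, chr3:65958235-65958292: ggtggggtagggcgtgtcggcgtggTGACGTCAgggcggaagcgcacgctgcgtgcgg

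The shorter site TGACG, which the full element contains, occurred in 37.5% of the called genes with a window and 37.5% of the tested ones, on either strand. The CArG box, searched on both strands by its consensus, occurred in 3 genes (Arrdc4, Rnd3 and Zfp36, 9.38% against 1.58% of tested genes). The AP-1 site TGANTCA occurred in 2 (6.25% against 5.87%), and the E-box CACGTG, also palindromic, in 7 (21.9% against 12.3%). The ATF4 and C/EBP composite site TGATGNAA and the heat shock element, searched on both strands, occurred in 0 of the 32, against 2.53% and 0.531% of tested genes, and a pair of E-boxes 5 bases apart in 0 of the 32 and 0 of the tested genes. Such matches describe letters in a window and no binding was measured. Ccnl1, a cyclin that regulates splicing, rose by 1.05 in treated cells and had a difference of -0.83 ± 0.11 (SE).

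In the integrated stress response, 2 of 18 measured genes had a lower response in recipients (Ddit3 and Ddit4) and none a higher one, with a median difference of -0.26. Ddit3 (chr10:127290774-127296288, plus strand), which encodes CHOP, stood at 50.5, 46.2 and 49 FPKM in vehicle and 426, 408 and 420 FPKM in treated libraries. It went from 54.9, 35.8 and 41.9 FPKM to 94.4, 104 and 100 FPKM in recipients. The groups were separate in both, and the responses of 3.08 and 1.18 differed by -1.90 ± 0.17 (SE, limma adjusted p = 0.000196). Ddit4, an inhibitor of mTORC1, rose by 1.63 and 0.62, with a difference of -1.01 ± 0.14 (SE).

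Other genes of that response did not pass the test of the difference. Chac1, which degrades glutathione, stood at 48.4, 32.9 and 38.9 FPKM in vehicle, 197, 202 and 187 FPKM in treated libraries, 34.1, 28.0 and 32.4 FPKM in vehicle recipients and 66.3, 92.5 and 94.0 FPKM in oligomycin A recipients. It rose in both, and its difference of -0.90 (95% interval -1.36 to -0.43) had a limma adjusted p of 0.124. Atf4 had a difference of -0.52 (95% interval -1.13 to 0.09), and Trib3, a pseudokinase induced by CHOP, one of -0.67 (-1.33 to -0.01). Sesn2, a leucine sensor, rose in both: its response was 0.89 in treated cells and 0.94 in recipients, and the interval of the difference, -0.32 to 0.42, leaves sizeable gaps either way possible.

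The amino acid genes likewise gave no call among 15 measured by limma, 1 having an unadjusted p below 0.05, with a median difference of -0.05. Slc3a2, the heavy chain of amino acid exchangers, stood at 40.1, 37.3 and 42.2 FPKM in vehicle, 61.3, 60.0 and 67.7 FPKM in treated libraries, 36.2, 34.4 and 30.9 FPKM in vehicle recipients and 55.3, 69.2 and 55.6 FPKM in oligomycin A recipients. It rose in both kinds of cell, and the difference of 0.16 had an interval of -0.13 to 0.45. Slc38a2, a neutral amino acid transporter, rose by 0.69 and 0.38, with a difference of -0.30 (-0.46 to -0.15, limma adjusted p = 0.129). No aminoacyl-tRNA synthetase was called by limma among 18, in the difference or in either response, and 0 had an unadjusted p below 0.05 for the difference.

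Txnip (chr3:96557957-96561883, plus strand), an alpha-arrestin that binds thioredoxin and lowers glucose uptake, had the difference of largest size among the called genes. It stood at 28.6, 35.6 and 35.2 FPKM in vehicle and 123, 139 and 129 FPKM in treated libraries. In recipients it stood at 15.0, 22.9 and 25 FPKM with vehicle supernatant and 8.99, 6.89 and 9.82 FPKM with oligomycin A supernatant. The groups were separate in both comparisons and in opposite order. The response was 1.95 in treated cells (limma adjusted p = 5.6e-05) and -1.18 in recipients (0.0118), a difference of -3.13 ± 0.24 (SE, adjusted p = 6.42e-05).

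Arrdc4, the closest relative of Txnip among the alpha-arrestins and like it a target of MondoA, moved less. It stood at 31.4, 32.0 and 33.8 FPKM in vehicle, 35.0, 40.0 and 35.5 FPKM in treated libraries, 34.0, 34.1 and 32.2 FPKM in vehicle recipients and 25.3, 27.2 and 26.6 FPKM in oligomycin A recipients. The recipient groups were separate and low with oligomycin A supernatant, with responses of 0.18 (not called) and -0.33 and a difference of -0.51 ± 0.09 (SE, limma adjusted p = 0.0233). The call ended without any 1 of 5 libraries and under 8 of 24 alternatives, with adjusted p up to 0.348. All 7 measured members of this list (Txnip, the arrestins and MondoA with its partner) had a negative estimate, and 2 were called.

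**Figure D3:**
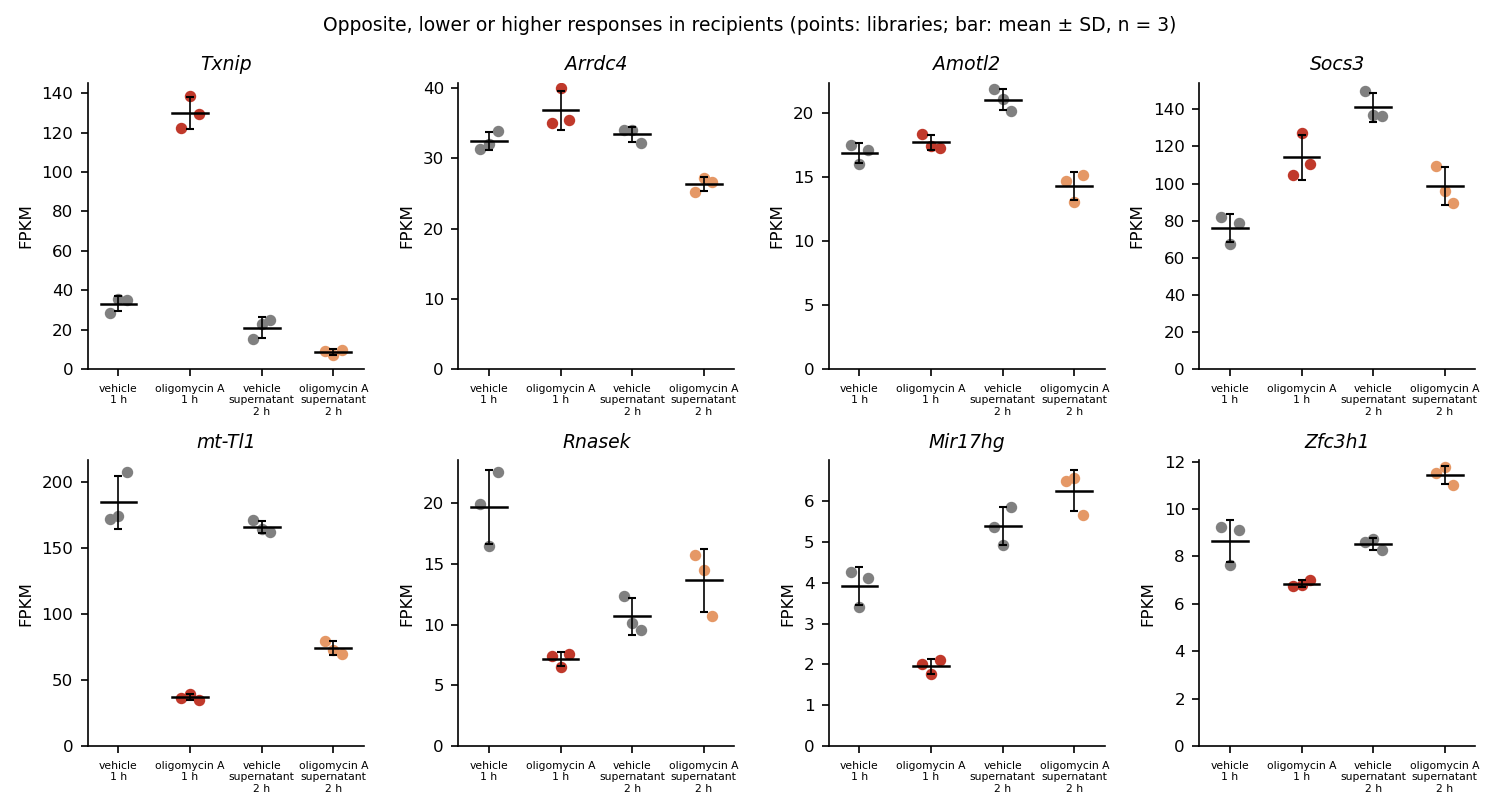
FPKM of 8 genes with opposite, lower or higher responses in recipients, by group, with 1 point per library and bars for the mean and SD of 3 libraries. Txnip is high in treated libraries and low in oligomycin A recipients, Arrdc4 and Amotl2 are low only in oligomycin A recipients, and mt-Tl1 is low in both exposed groups.

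Genes of NF-kB and cytokine signalling gave 3 calls among 22 measured (Nfkbia, Bcl3 and Ptgs2), all lower, with a median difference of -0.30 and 20 negative estimates. Nfkbia, the inhibitor that holds NF-kB in the cytoplasm and is itself an NF-kB target, stood at 48.9, 42.4 and 48.2 FPKM in vehicle and 105, 100 and 98.6 FPKM in treated libraries. All 6 recipient libraries lay between 42.4 and 50.8 FPKM, and the difference was -1.11 ± 0.11 (SE, limma adjusted p = 0.000395). Bcl3, an atypical IkB protein, differed by -0.73. Map3k14, the kinase NIK of the alternative NF-kB pathway, rose by 0.78 in treated cells, with an estimate of -0.08 in recipients and a difference of -0.86 ± 0.08 (SE).

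Ptgs2, the inducible cyclooxygenase that makes prostaglandins, stood at 244, 239 and 244 FPKM in vehicle, 509, 527 and 511 FPKM in treated libraries, 244, 204 and 209 FPKM in vehicle recipients and 319, 317 and 296 FPKM in oligomycin A recipients. It rose in both, by 1.09 and 0.51, and differed by -0.58 ± 0.09 (SE, limma adjusted p = 0.0173), a call that ended without vehicle replicate 1 or without any 1 of the 3 treated libraries. Il6 had a difference of -0.54 (-0.79 to -0.28) and a limma adjusted p of 0.092. Nfkbiz, another IkB protein, rose by 0.93 and 0.64, and its difference of -0.29 was not called.

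Socs3, the feedback inhibitor of JAK and STAT signalling, stood at 81.9, 67.3 and 79.0 FPKM in vehicle and 104, 127 and 110 FPKM in treated libraries. In recipients it stood at 150, 137 and 136 FPKM with vehicle supernatant and 110, 95.9 and 89.6 FPKM with oligomycin A supernatant. The groups were separate in both comparisons and in opposite order, and vehicle recipients were the highest of the 4 groups. The treated response of 0.58 was called, the recipient response of -0.52 was not (limma adjusted p = 0.0587), and the difference was -1.10 ± 0.14 (SE, adjusted p = 0.00363). Osmr, a receptor subunit for oncostatin M, differed by -0.42.

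**Figure D4:**
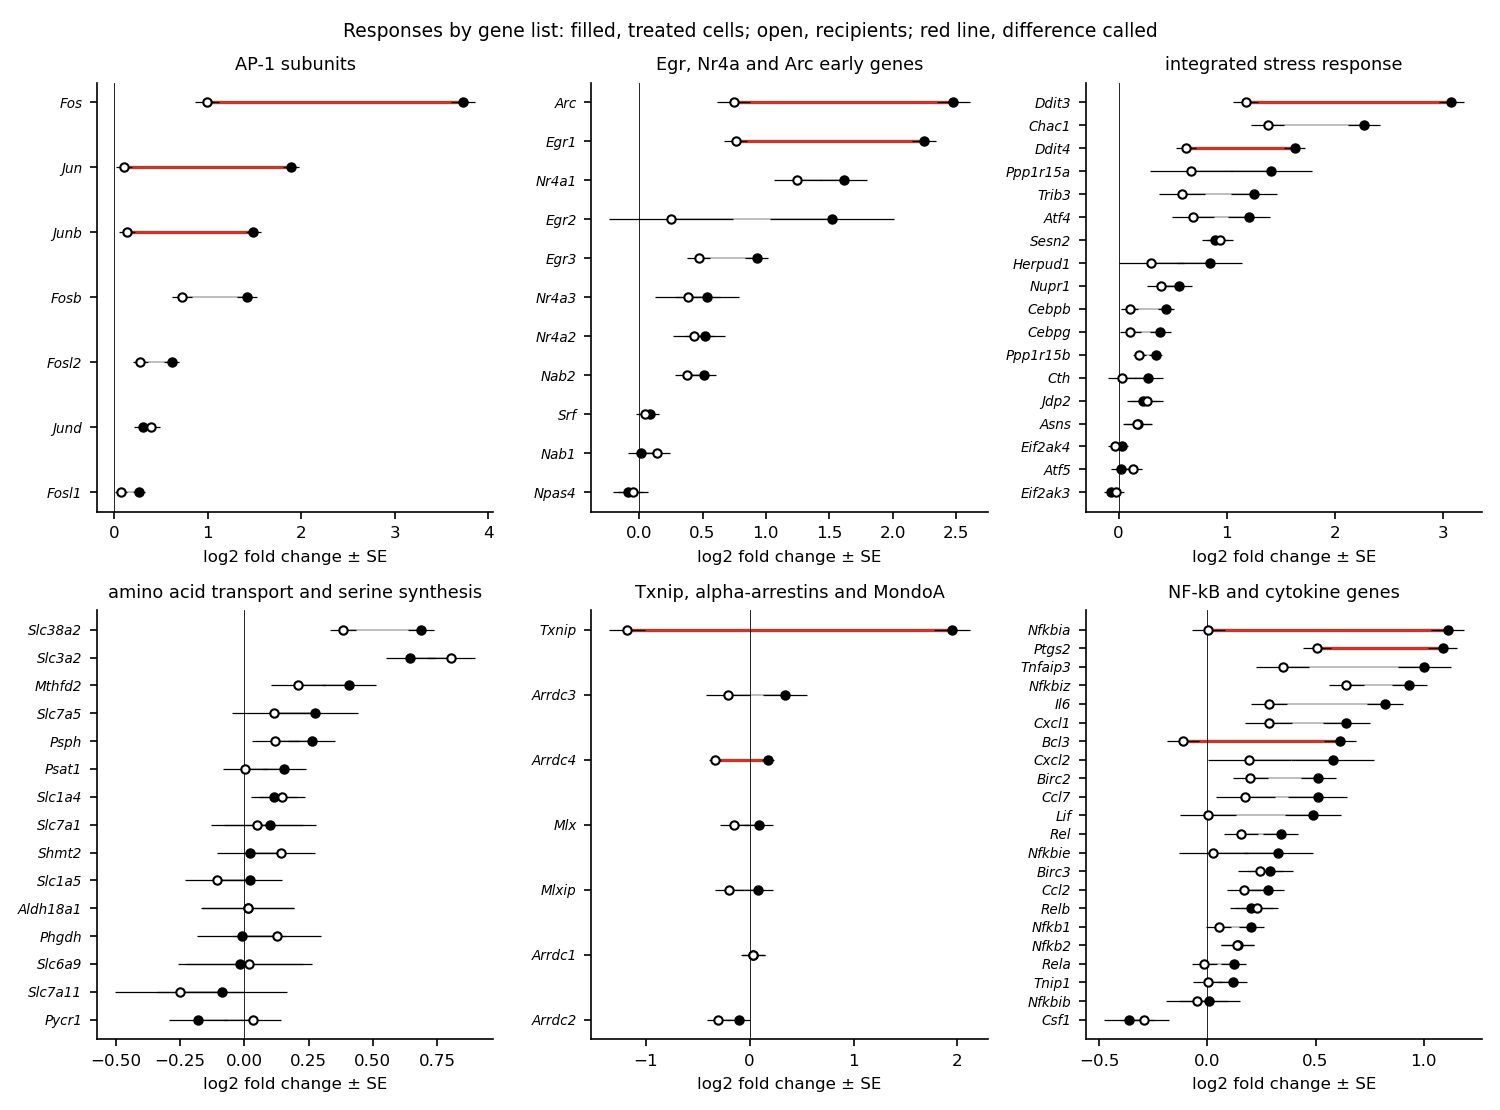
Log2 responses with standard errors for each measured gene of 6 lists, filled circles for treated cells and open circles for recipients, with a red line where the difference was called. In the AP-1 panel the open circles of Fos, Jun and Junb stand far to the left of the filled ones, while in the amino acid panel most pairs lie within a standard error or so of each other.

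Further regulators whose response was lower in recipients than in treated cells were spread over several lists. Sat1, which acetylates polyamines for export, rose by 1.22 and 0.42, with a difference of -0.80 ± 0.09 (SE). Klf2, a Kruppel-like factor, stood at 11.9, 11.5 and 11.5 FPKM in vehicle, 29.4, 30.5 and 33.3 FPKM in treated libraries, 3.65, 3.03 and 3.28 FPKM in vehicle recipients and 4.09, 5.58 and 5.45 FPKM in oligomycin A recipients. Its groups were separate in both comparisons, but the recipient response of 0.48 was not called (limma adjusted p = 0.0778), and the difference of -0.87 lost its call without treated replicate 3. Klf11 differed by -0.61, and these were the 2 called of 11 Kruppel-like factors. Rnd3, an atypical small GTPase, differed by -0.73 and was the 1 called of 9 inducible small GTPases.

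Smad7, the inhibitory SMAD (-0.78, 1 of 13 in the TGF-beta and BMP list), the clock repressor Nr1d1 (-0.76), Bhlhe40 (-0.63, 1 of 15 hypoxia genes) and Gadd45b (-0.77) also differed. Dnaja1, an HSP40 co-chaperone, was the 1 called of 14 cytosolic chaperones, at -0.48. Plat, tissue plasminogen activator (-0.53), Snhg5, a snoRNA host (-0.76), Nsrp1, a splicing factor (-0.50), Pogz (-0.45), Cramp1l (-0.65), Mnt, a Max-binding repressor (-0.48), and the zinc finger gene Zfp960 (-0.57) were also called higher in treated cells only. Reads of Zfp960 may be shared with related zinc finger genes such as its neighbour Zfp97, which had a difference of -0.52 and a limma adjusted p of 0.0602. Of the 53 calls, 32 held without any single library; the other 21 ended without at least 1, from Klf2 (1 library) to Dnaja1 and Mnt (11 libraries each).

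The predicted genes Gm45774 (-1.80) and Gm17024 (-1.78) also responded less in recipients. Gm45774 shares 749 bases with Mt2 on the other strand, a gene at a mean of 1294 FPKM whose difference was -0.35 and was not called. Gm17024 lies within Ifrd1 on the same strand, and Ifrd1 rose by 1.26 and 0.75, with a difference of -0.51 (limma adjusted p = 0.142). Whether counting used the strand is not stated, so reads of such overlapping pairs may not be separable.

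Few genes with a called difference were called in recipients without a call in treated cells. Amotl2, an angiomotin-like inhibitor and target of YAP, stood at 17.5, 16.0 and 17.1 FPKM in vehicle, 18.4, 17.5 and 17.3 FPKM in treated libraries, 21.9, 21.1 and 20.2 FPKM in vehicle recipients and 14.7, 13.1 and 15.2 FPKM in oligomycin A recipients. Only oligomycin A recipients stood low, the highest of them below the lowest library of every other group. The responses were 0.07 and -0.53 and the difference -0.60 ± 0.09 (SE, limma adjusted p = 0.0131), and with Gadd45b it was 1 of 2 called among 14 YAP and TEAD targets. Midn, midnolin, which carries early transcription factors to the proteasome, fell by 0.34 in recipients and differed by -0.52, a call that ended without any 1 of 7 libraries and under 10 of 24 alternatives (limma adjusted p up to 0.342). Rps23-ps2 differed by -0.87, but it is a processed pseudogene whose reads may come from Rps23 or its other copies, and the call ended without any 1 of 5 libraries. The Amotl2 call held without any single library and ended under both rescalings to a total that held rRNA-like genes (limma adjusted p up to 0.232). It was kept with rRNA-like, satellite-like and 7S genes left out of the total.

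Other genes that fell in recipients did not pass the test of the difference. Snai1, a repressor of epithelial genes, fell by 0.88 in recipients, where it stood at 49.6, 54.3 and 53.1 FPKM with vehicle supernatant and 31.5, 27.4 and 25.3 FPKM with oligomycin A supernatant. In directly exposed cells it stood at 24.5, 21.9 and 26.1 FPKM with vehicle and 20.1, 20 and 18.8 FPKM with oligomycin A. Both exposed groups stood below their vehicle groups, and the difference of -0.59 (-0.85 to -0.34) had a limma adjusted p of 0.0693. Ajuba, a LIM protein of the Hippo pathway, fell by 0.58 in recipients, with a difference of -0.43 (limma adjusted p = 0.0902).

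The 10 genes with a higher response in recipients were mostly non-coding: 3 were protein-coding (30.0%), against 84.5% of the tested genes. The tRNA gene mt-Tl1 (chrM:2676-2750, plus strand), a mitochondrial leucine tRNA, stood at 171, 174 and 207 FPKM in vehicle, 36.3, 39.5 and 35.0 FPKM in treated libraries, 171, 164 and 162 FPKM in vehicle recipients and 79.7, 72.7 and 69.6 FPKM in oligomycin A recipients. The groups were separate in both comparisons, and the falls of 2.28 and 1.15 differed by 1.13 ± 0.11 (SE, limma adjusted p = 0.000504). It was the 1 called among 19 measured mitochondrial tRNA genes, whose median difference was -0.01. Of these 19, 9 had an unadjusted p below 0.05 for the difference, 6 higher and 3 lower, against 10.7% of all genes tested. In treated cells 8 of the 19 were called lower, and none higher. The mt-Tl1 call ended with mt- genes left out of the total to which libraries were rescaled (limma adjusted p = 0.0658). The gene spans few bases for a fragment of a poly(A) library, and which transcripts its reads came from was not tested.

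Rnasek, ribonuclease kappa, stood at 19.9, 16.5 and 22.5 FPKM in vehicle, 7.42, 6.48 and 7.60 FPKM in treated libraries, 12.4, 10.1 and 9.54 FPKM in vehicle recipients and 15.7, 14.5 and 10.7 FPKM in oligomycin A recipients. Treated libraries were the lowest, while the recipient groups overlapped. The difference was 1.65 ± 0.21 (SE, limma adjusted p = 0.00328), and 1707 bases of the gene are shared with Gm21988 on the same strand, whose difference was 0.11. Zfc3h1, a zinc finger protein that directs transcripts to the nuclear exosome, stood at 9.22, 7.62 and 9.10 FPKM in vehicle, 6.76, 6.78 and 7.02 FPKM in treated libraries, 8.59, 8.75 and 8.26 FPKM in vehicle recipients and 11.5, 11.7 and 11 FPKM in oligomycin A recipients. It fell by 0.29 in treated cells and rose by 0.38 in recipients, with a difference of 0.67 ± 0.09 (SE). The Zfc3h1 call ended under both rescalings to a total that held rRNA-like genes (limma adjusted p up to 0.665). It was kept with rRNA-like, satellite-like and 7S genes left out of the total. Nsun5, an rRNA methyltransferase, differed by 0.43, and this call ended without any 1 of 10 libraries.

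Both named long non-coding RNAs on the higher side are microRNA hosts, a feature noticed after their values were seen. Mir17hg (chr14:115042879-115046727, plus strand, GRCm38), which carries the miR-17-92 cluster, stood at 4.27, 3.40 and 4.12 FPKM in vehicle, 2.00, 1.76 and 2.12 FPKM in treated libraries, 5.36, 4.93 and 5.86 FPKM in vehicle recipients and 6.5, 6.57 and 5.67 FPKM in oligomycin A recipients. It fell in treated cells only, where the groups were separate; the recipient groups overlapped, and the difference was 0.92 ± 0.13 (SE, limma adjusted p = 0.00671). Mir22hg (chr11:75461539-75466676, plus strand), which carries miR-22 and lies almost wholly within Tlcd2 on the same strand, stood at 37.3, 32.8 and 35.4 FPKM in vehicle, 22.2, 23.1 and 23.0 FPKM in treated libraries, and between 24.9 and 28.5 FPKM in all 6 recipient libraries. Its difference was 0.63 ± 0.09 (SE, limma adjusted p = 0.00935). Both host calls ended when the libraries were set to one total, with or without mt- genes in it, with limma adjusted p up to 0.22 for Mir17hg and 0.756 for Mir22hg. Both were kept with rRNA-like, satellite-like and 7S genes left out of the total.

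For each hairpin of these hosts the strand usually taken as the main product is printed from RefSeq (GRCm38.p6), to show what the 2 transcripts can give; the opposite strands are left out. Each has the seed (bases 2 to 8) in capitals. The libraries do not measure mature microRNAs.
mmu-miR-17-5p: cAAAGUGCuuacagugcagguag
mmu-miR-20a-5p: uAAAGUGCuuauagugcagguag
mmu-miR-18a-5p: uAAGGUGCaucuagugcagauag
mmu-miR-19a-3p: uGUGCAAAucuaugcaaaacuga
mmu-miR-19b-3p: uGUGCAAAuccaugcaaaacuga
mmu-miR-92a-3p: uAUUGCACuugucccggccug
mmu-miR-22-3p: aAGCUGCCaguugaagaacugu
The miR-17 and miR-20a strands share 1 seed and the miR-19 strands another. Of 38 tested non-coding genes with a microRNA on their strand, 3 were called, all higher, and 21 had a positive difference, with a median of 0.06. Of all 1739 non-coding genes tested, 11 were called, 7 of them higher, and 912 had a positive difference, with a median of 0.02. The third called gene, Gm26532 (0.94), shares only 2 bases with Mir24-2. The remaining predicted genes on this side were Gm43150 (1.37) and Gm43151 (1.10), both antisense to Medag, and the snRNA Gm25596 (1.18), which stood between 0.407 and 2.06 FPKM and lies on the other strand of Rnf146.

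Of the 33 genes called higher in recipients, 23 were also called higher in treated cells without a call in the difference. Gem, a small GTPase that inhibits calcium channels, stood at 19.5, 17.9 and 18.8 FPKM in vehicle, 36.2, 35.2 and 37.2 FPKM in treated libraries, 13.5, 11.8 and 11.4 FPKM in vehicle recipients and 21.9, 25.1 and 22.4 FPKM in oligomycin A recipients. The groups were separate in both, the responses were 0.92 and 0.87, and the interval of the difference was -0.27 to 0.18. Adamts1, a secreted protease, rose by 0.65 and 0.68, with an interval of -0.21 to 0.27. Cyr61, a matricellular YAP and SRF target, rose by 1.11 and 1.02, with an interval of -0.50 to 0.34. These intervals bound the difference; a missed threshold does not show that the responses are the same. Id3, an inhibitor of basic helix-loop-helix factors, rose by 1.00 and 0.53, and its difference of -0.47 was not called (limma adjusted p = 0.108).

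The share of a treated response seen in recipients can be read by size, as a description, since the treated values enter the difference. Of 11 genes that rose by at least 2 on the log2 scale in treated cells, 10 were called in the difference, with a median response of 2.44 in treated cells and 0.75 in recipients; Chac1 was the exception. Of 36 genes that rose by 1 to 2, 12 were called, with medians of 1.22 and 0.48. Of 290 that rose by less than 0.5, 8 were called, with medians of 0.33 and 0.08. The median difference of these 290 was -0.24. In simulated data 33% of differences of 0.5, the smallest size simulated, were recovered. How often a difference as small as -0.24 would be called was not tested.

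Levels in the vehicle arms differed as well. Of the 43 genes with a lower response in recipients, 21 were lower in vehicle recipients than in vehicle cells, 7 higher and 15 not called, where 5.18% of all genes tested were called lower and 9.49% higher. On the log2 scale, vehicle recipients minus vehicle cells, the value was -2.31 for Fos, -1.96 for Egr1, -1.85 for Arc and -1.55 for Klf2, while Ddit3, Ddit4, Nfkbia and Ptgs2 were not called. Of the 10 with a higher response, 4 were higher, 2 lower and 4 not called. The part of these starting levels in the differences was not tested.

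Called genes with a lower response were compact. The 39 protein-coding ones spanned a median of 7402 bases, against 24016 over all protein-coding genes tested, and had a median of 4 exons against 8. Of them 35.9% had at most 3 exons, against 18.9% of tested coding genes. The 363 coding genes that rose in treated cells without a called difference spanned a median of 31681 bases, and 22.0% had at most 3 exons. The sets were not matched for size of response. Among all genes called higher in treated cells, the median treated response was 1.087 with a lower difference called and 0.385 with none called. Whether compactness goes with the size of the treated response was not tested.

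Apart from the mitochondrial tRNA genes given above, the mitochondrial and osteocyte lists held no called gene. With 0.445% of all genes called, lists of such size would hold few calls or none in any case. No ATP synthase subunit was called by limma among 17, although 5 had an unadjusted p below 0.05, all higher, and the median difference was 0.18; it was 0.05 when libraries were rescaled to one total. None of 34 nuclear electron transport genes, 38 ribosomal protein genes or 13 mitochondrial mRNAs was called, with medians of 0.09, 0.11 and -0.06; the first 2 became -0.03 under that rescaling, which moved the median of all genes to -0.1179. Unadjusted p was below 0.05 for 4, 6 and 0 of these genes, against 10.7% of all genes tested. Estimates were negative for 1 of 17 ATP synthase, 7 of 34 electron transport, 1 of 38 ribosomal protein and 10 of 13 mitochondrial mRNA genes. Over all genes 6111 of 11902 were negative. With libraries rescaled to one total, 5, 21, 24 and 13 of the genes in these lists were negative. Among the 7 Snail, Twist and Zeb factors none was called by limma (3 at an unadjusted p below 0.05), and the median was -0.37. Gja1, the connexin of osteocyte channels, differed by -0.02 (-0.61 to 0.57), Tnfsf11, which encodes RANKL, by -0.05 (-0.31 to 0.22), and the nucleotide receptor P2ry2 by 0.24 (-0.48 to 0.97). None of the 9 measured osteocyte markers was called by limma, and 1 had an unadjusted p below 0.05.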

How the data were processed

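RNA of 12 MLO-Y4 libraries, purified with oligo(dT) beads, was sequenced on an Illumina instrument, per the labels' protocols. The authors deposited gene-level FPKM values; HTSeq and mm10 are listed in the submitters' processing notes without saying what each was used for, and the aligner and strand setting are not given in the sources used here. Counts were not recovered, since 40.7% to 43.4% of low values lay within 0.1 of a whole fragment. The deposited FPKM were converted to log2(FPKM + 1) and fitted with limma 3.58.1 in R 4.3.3 (trended prior, 4 groups, 12 libraries, Benjamini-Hochberg adjustment over 11902 genes); fold changes on this scale understate those of low genes. Positions came from GENCODE M21, which held 55154 of the 55335 IDs, and sequences from RefSeq. The largest share of identical values between libraries was 0.0256%.

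Named genes were the called genes, the 20 called in recipients with the smallest p, the 5 next in p, called list members and a set of stress and osteocyte genes. Members and the 40 lists were chosen with earlier results of these data known. Not every gene named by this rule is reported. In simulated data for this difference (11902 genes, 200 changed), 33% of changes of 0.5, 82.5% of changes of 1 and 96% of changes of 2 were recovered, with 1, 7 and 12 false calls. Unadjusted p was below 0.05 for 1276 genes (10.7%). No difference was called in the lists of mitochondrial chaperones (median -0.02), endoplasmic reticulum chaperones (0.00), glycolysis (0.13), SRF targets (-0.07), NRF2 targets (0.06), cholesterol synthesis (0.03), purinergic genes (0.09), RANKL, OPG and M-CSF (0.07), mitosis (-0.03), osteoblast genes (0.04), macrophage and osteoclast (-0.13), erythroid (0.34, 1 gene) and adipocyte markers (-0.04, 1 gene). Btg2 was the 1 called of 12 p53 targets.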

Additional observations from a re-analysis of the deposited data

Results flagged for a closer look

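The test of the difference itself called 53 genes whose responses differed between recipients and treated cells. For 14 of them every single-library response in recipients had one sign and every one in treated cells the other. The same count over all genes tested is not given here, so 14 cannot be set against a background share. The differences, recipients minus treated cells on the log2 scale, were negative for Txnip (-3.13), Socs3 (-1.10), Rps23-ps2 (-0.87), Map3k14 (-0.86), Cramp1l (-0.65), Klf11 (-0.61), Zfp960 (-0.57), Midn (-0.52), Arrdc4 (-0.51), Nsrp1 (-0.50) and Mnt (-0.48). They were positive for Gm25596 (1.18), Gm26532 (0.94) and Zfc3h1 (0.67). Only Txnip and Zfc3h1 of these 14 were called in both responses by limma, so for the others the opposite direction rests on the library ranges. Some of these ranges were narrow: in recipients Map3k14 had -0.13 to -0.03 and Nsrp1 -0.21 to -0.01. The calls of Arrdc4, Cramp1l, Gm25596, Klf11, Midn, Mnt, Nsrp1, Rps23-ps2 and Zfp960 each ended without some single library. No groups were large enough for a search for single outlying libraries.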

How the results depend on the processing

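No called gene changed direction under any alternative that gave it a value, all 24 for 47 genes and 23 for 6 that the stricter filter removed; 20 of the 47 and 1 of the 6 (Gm43150) stayed called throughout. The count of differing genes became 31 with libraries rescaled to one total, 24 with that total free of mt- genes, 112 with it free of rRNA-like, satellite-like and 7S genes (34 higher and 78 lower), 102 with median-of-ratios scaling, 103 with quantile normalization and 168 with array weights (52 higher and 116 lower). All 53 were kept under each of the last 4. The first 2 totals held the rRNA-like genes. Summed FPKM was 352369.7 in vehicle replicate 2 and 265159.9 to 282133.9 in the other libraries. Under these 2 rescalings the median difference of all genes was -0.1179 and -0.1289, against 0.0141 with rRNA-like, satellite-like and 7S genes left out. Leaving out 1 library gave 35 to 70; the lowest was without treated replicate 3. In treated cells the count of 636 became 386 with no filter, 275 and 241 under the first 2 rescalings (256 higher and 19 lower in the first, 219 and 22 in the second), 1134 (632 and 502), 1170 and 1221 (701 and 520) under the other scalings, 1790 (768 and 1022) with array weights, 409 with only the 6 libraries compared, and 265 to 806 without 1 library. In recipients the count of 46 became 23 with no filter, 17 and 17 under the first 2 rescalings, 91, 81 and 85 under the others, 100 with array weights, 7 with only the 6 libraries (2 higher and 5 lower), and 22 to 59 without 1 library. The causes were not tested. Deviations from group means correlated at -0.14 to 0.059 between same-numbered libraries and at -0.22 to 0.22 between libraries of unlike number. The largest of these were between the 2 recipient groups. With 3 libraries a group, such correlations cannot settle whether the numbers pair samples. With a replicate block the count was 35 for the difference, with 34 of the 53 kept, 434 for treated cells and 28 for recipients. Without counts, depth limits low genes by an unknown amount.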
